A study of Mus musculus with 10 samples.

Results

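Chromatin accessibility of the genes for STAT transcription factors and for their SOCS family inhibitors was compared in group 2 innate lymphoid cells (ILC2s) of 5 mouse tissues. The genes were Stat3, Stat4, Stat5a, Stat5b, Stat6, Socs1, Socs2, Socs3 and Cish. An open region was given to a gene when its centre lay inside the gene or when the nearest RefSeq transcription start site (TSS) was that of the gene. This gave 71 of the 50039 regions in the deposited ATAC-seq count table, and each of the 71 had counts. Because 2 regions lie inside Stat3 and nearest to the start of Stat5a, there are 73 pairs of a gene and a region. A region is named here by its gene and by the distance of its centre from the TSS of the longest curated transcript, with plus for downstream. Stat5b, Stat5a and Stat3 are neighbours on chromosome 11 (chr11:100780731-100859004, chr11:100859351-100885169 and chr11:100886806-100939594 in GRCm38), and Socs3 lies further along it (chr11:117966079-117970336). Socs2 (chr10:95383903-95417321) and Stat6 (chr10:127642955-127660987) share chromosome 10, while Stat4 (chr1:51987106-52107189), Cish (chr9:107296659-107302784) and Socs1 (chr16:10783808-10785536) stand alone.

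In ATAC-seq, the Tn5 transposase cuts open DNA and leaves sequencing adapters there, so that open regions collect more reads. Male wild-type C57BL/6 mice aged 6 weeks gave ILC2s of small intestine (SI), pancreas, bone marrow (BM), lung and large intestine (LI), with each tissue represented by 2 libraries of 50000 cells that were sorted from pooled mice. BM cells were gated as lineage-negative, ST2+ and CD25+ on a sorter of their own, LI, lung and pancreas cells also by CD45 and CD127, and SI cells by CD45, CD127, Thy1 and KLRG1 without ST2 or CD25. LI, lung and pancreas thus shared a gate, and the 4 tissues outside BM a sorter. The authors flushed BM cells from bone, while lung, pancreas and both intestines were digested with collagenase. SI and LI were also treated with dithiothreitol and EDTA, and fewer mice were pooled for them than for the other tissues. For BM the gate, the sorter and the lack of digestion cannot be told apart from the tissue. The same holds for the gate of SI, and for the added treatment and pool size of SI and LI together. The p-values measure the spread between 2 pools per tissue.

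Cytokines such as IL-2, IL-4, IL-7, IL-13 and TSLP signal through Janus kinases, which phosphorylate STAT proteins that then dimerise and bind DNA. STAT5 (Stat5a and Stat5b) serves IL-2, IL-7 and TSLP, STAT6 serves IL-4 and IL-13, STAT3 serves IL-6, IL-10 and IL-21, and STAT4 serves IL-12. CIS (the product of Cish) and SOCS1 to SOCS3 are induced by STAT proteins and inhibit the receptors and kinases upstream of them. ILC2s depend on IL-7, IL-2 and TSLP for survival and growth, and IL-33 acts beside these through another route.

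Parts of 8 regions that hold letters of STAT or AP-1 sites are shown from the GRCm38 reference (mm10), plus strand, 5′ to 3′. Regions without such letters that also differed among tissues, such as Socs3 +29.6 kb and Stat4 +10.1 kb, are not shown. Capitals mark the letters of a STAT dimer site, TTCNNNGAA, those of an AP-1 site, TGANTCA, or, at Stat4 alone, TTC and GAA set 4 bases apart, the spacing that STAT6 prefers. The windows of 200 or 300 bases are the centres of regions. At Cish and Socs2, 30 bases around the STAT letters are shown.
Cish +1.7 kb (chr9:107298231-107298260): cacacacaggTTCTTGGAAcacaccagtcc
Socs2 -0.2 kb (chr10:95416899-95416928): ccgctTTCCAGGAActTTCCAGGAAtccgc
Socs1 +13.2 kb (chr16:10772261-10772460): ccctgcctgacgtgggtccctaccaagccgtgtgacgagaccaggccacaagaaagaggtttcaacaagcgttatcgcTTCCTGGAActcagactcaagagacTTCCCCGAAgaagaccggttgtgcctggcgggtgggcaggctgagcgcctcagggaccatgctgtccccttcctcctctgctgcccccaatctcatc
Socs3 +3.6 kb (chr11:117965708-117965907): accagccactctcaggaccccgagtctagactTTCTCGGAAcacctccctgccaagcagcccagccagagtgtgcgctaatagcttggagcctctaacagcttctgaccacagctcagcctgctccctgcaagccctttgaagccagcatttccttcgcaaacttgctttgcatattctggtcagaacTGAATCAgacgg
Stat4 +53.7 kb (chr1:52040712-52040911): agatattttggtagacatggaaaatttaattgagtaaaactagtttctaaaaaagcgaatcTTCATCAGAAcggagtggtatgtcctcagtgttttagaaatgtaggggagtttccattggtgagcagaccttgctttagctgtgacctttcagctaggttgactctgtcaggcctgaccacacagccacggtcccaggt
Socs1 +30.8 kb (chr16:10754540-10754839): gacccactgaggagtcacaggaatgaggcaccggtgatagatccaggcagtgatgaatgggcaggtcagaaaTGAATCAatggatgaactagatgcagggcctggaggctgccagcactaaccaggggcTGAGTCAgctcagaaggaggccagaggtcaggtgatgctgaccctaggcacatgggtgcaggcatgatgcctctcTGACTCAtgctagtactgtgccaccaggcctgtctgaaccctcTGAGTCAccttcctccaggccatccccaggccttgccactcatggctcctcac
Cish +6.6 kb (chr9:107303141-107303340): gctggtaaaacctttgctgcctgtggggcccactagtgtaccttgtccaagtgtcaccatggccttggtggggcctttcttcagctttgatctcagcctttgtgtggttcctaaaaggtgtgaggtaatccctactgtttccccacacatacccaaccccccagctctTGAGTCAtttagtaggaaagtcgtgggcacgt
Stat3 +5.4 kb (chr11:100933950-100934249): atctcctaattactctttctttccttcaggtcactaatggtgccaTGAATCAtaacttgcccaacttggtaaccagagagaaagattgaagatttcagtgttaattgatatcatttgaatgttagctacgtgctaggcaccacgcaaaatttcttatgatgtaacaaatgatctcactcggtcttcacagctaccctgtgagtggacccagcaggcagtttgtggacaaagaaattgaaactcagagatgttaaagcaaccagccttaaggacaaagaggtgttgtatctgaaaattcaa
The first 4 hold STAT letters and belong to inhibitor genes. The letters stood twinned at Socs2 and in a pair at Socs1 +13.2 kb, and the Socs1 +30.8 kb region, which had the smallest adjusted p of the 71 over the 5 tissues, held 4 AP-1 matches and no STAT match. A match is a description of the letters and does not show binding.

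Values are given as CPM, the count of a region per 1000000 counts of its library, with library totals scaled by TMM (trimmed mean of M-values). Over the 71 regions, accessibility differed among the 5 tissues in 43 (edgeR quasi-likelihood F-test, adjusted p under 0.05), against 44.2% of all 49981 regions tested, so the share of these genes' regions was above that of the table, without a test of the difference. The STAT genes had 23 called of 34 regions and the inhibitor genes 20 of 37. Each gene but Stat6 had called regions: 6 of 7 at Stat3, 9 of 14 at Stat4, 5 of 5 at Stat5a, 5 of 7 at Stat5b, 9 of 20 at Socs1, 3 of 3 at Socs2, 3 of 8 at Socs3 and 5 of 6 at Cish. Stat6 had 0 of 3 called by edgeR, while 1 had an unadjusted p under 0.05 and 1 was called by DESeq2. Of 11 promoter regions (centre at most 1000 bp before or 100 bp after a start site), 7 were called, as were 36 of the other 60. The 44.2% above covers all classes of region together, and 19.2% of the regions in the table were promoters. The share called was not computed by class, so neither count has a background of its own class. The promoter count depended on the fit. With the GC trend removed it was 3 of 11, and 33 of the other 60 were called. It was 4 with a block for replicate number. It was 2 without lung replicate 1, lung replicate 2 or pancreas replicate 1, 3 without BM replicate 1 or 2 or LI replicate 1 or 2, and 4 without pancreas replicate 2.

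**Figure D1:**
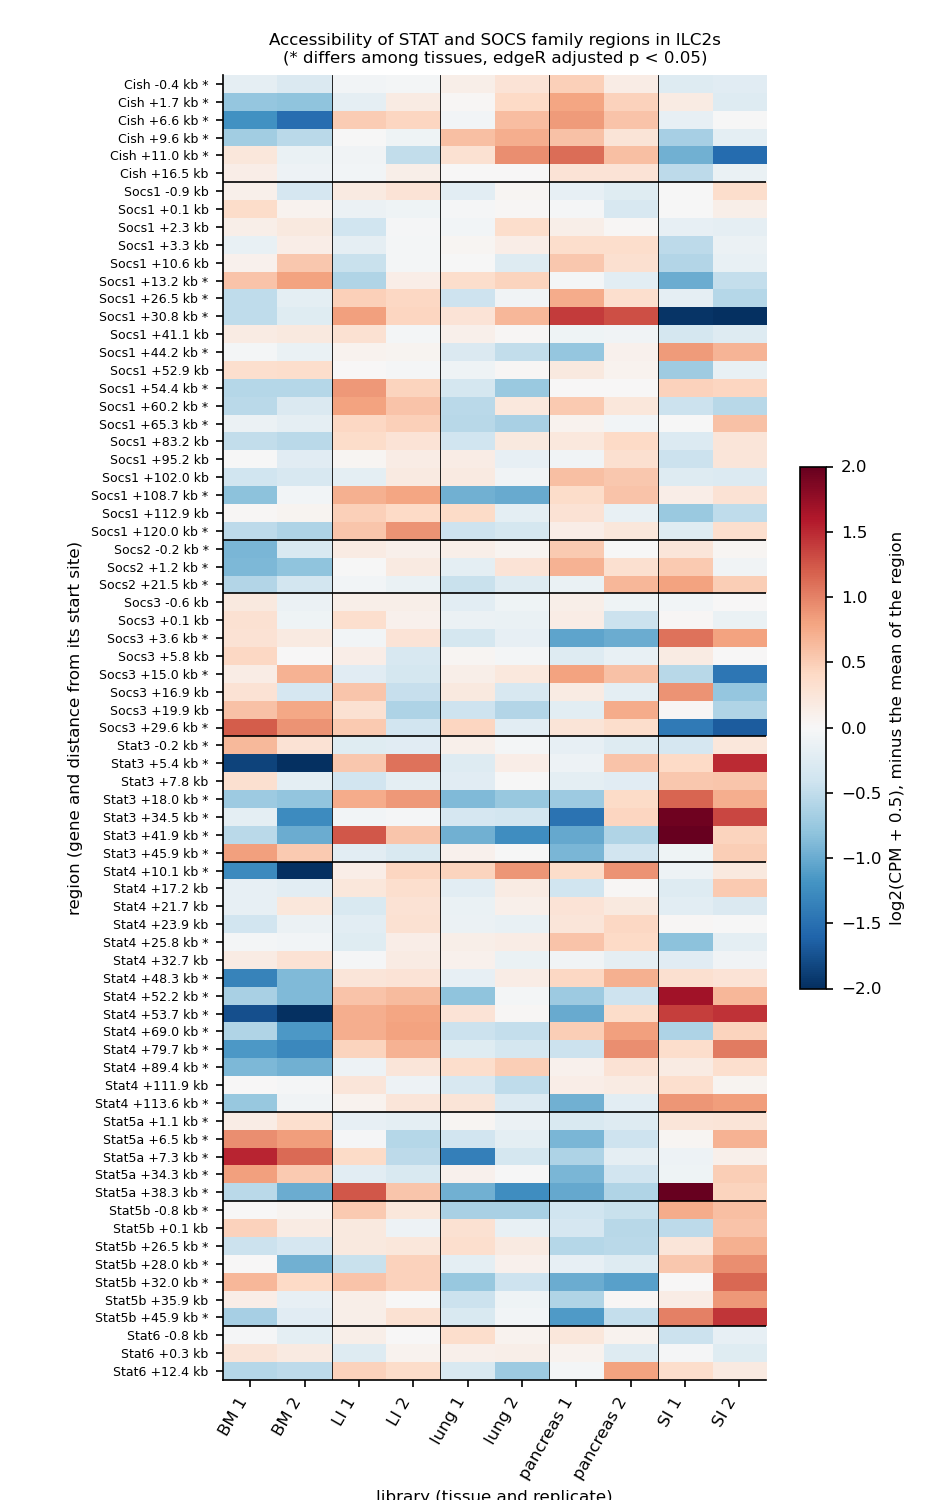
Heat map of log2(CPM + 0.5) in each of the 10 libraries (columns) at the 73 gene and region pairs (rows, grouped by gene, an asterisk for a called region), centred on each row; red is above and blue below the mean of the row. Many Cish, Socs2 and Stat4 rows were blue in both BM libraries, and the Socs1 +30.8 kb row was red in pancreas and blue in SI.

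BM was the tissue with the lowest mean at 23 of the 71 regions (32.4%, against 26.2% of all tested regions) and SI at 19 (26.8%, against 20.6%). LI was the lowest at 3 regions (4.23%, against 16.2%). SI was the highest at 21 regions (29.6%, against 23.8%), pancreas at 18 (25.4%, against 16.9%) and lung at 4 (5.63%, against 14.7%). The lowest and highest tissue of a region is a description and carries no test.

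In each comparison with BM, more regions were higher in the other tissue than in BM. LI was above BM at 22 regions (18.3% of all tested regions were called so) and below it at 5 (12.6%). Pancreas was above BM at 20 (14.3%) and below it at 8 (9.89%). SI was above BM at 24 (15.1%) and below it at 7 (10.7%), and lung was above BM at 11 (11.5%) and below it at 4 (7.56%). Of the 71 regions, the shares higher in LI, pancreas and SI than in BM stood above those of the whole table (22, 20 and 24 of 71 regions), and the 11 of 71 higher in lung stood nearer to it.

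SI differed from lung and from pancreas in both directions. SI was above lung at 17 regions (11.1%) and below it at 6 (9.86%). It was above pancreas at 17 (8.45%) and below it at 13 (12.0%). Between SI and LI, SI was higher at 2 regions (1.53%) and LI at 4 (6.9%). LI, lung and pancreas were separated by 10 calls or fewer in each comparison. LI was above lung at 9 regions (8.18%) and below it at 1 (2.72%), LI was above pancreas at 2 (2.01%) and below it at 1 (1.25%), and pancreas was above lung at 3 (4.2%) and below it at 0 by edgeR (1.62%), with 5 at an unadjusted p under 0.05 and 2 by DESeq2.

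**Figure D2:**
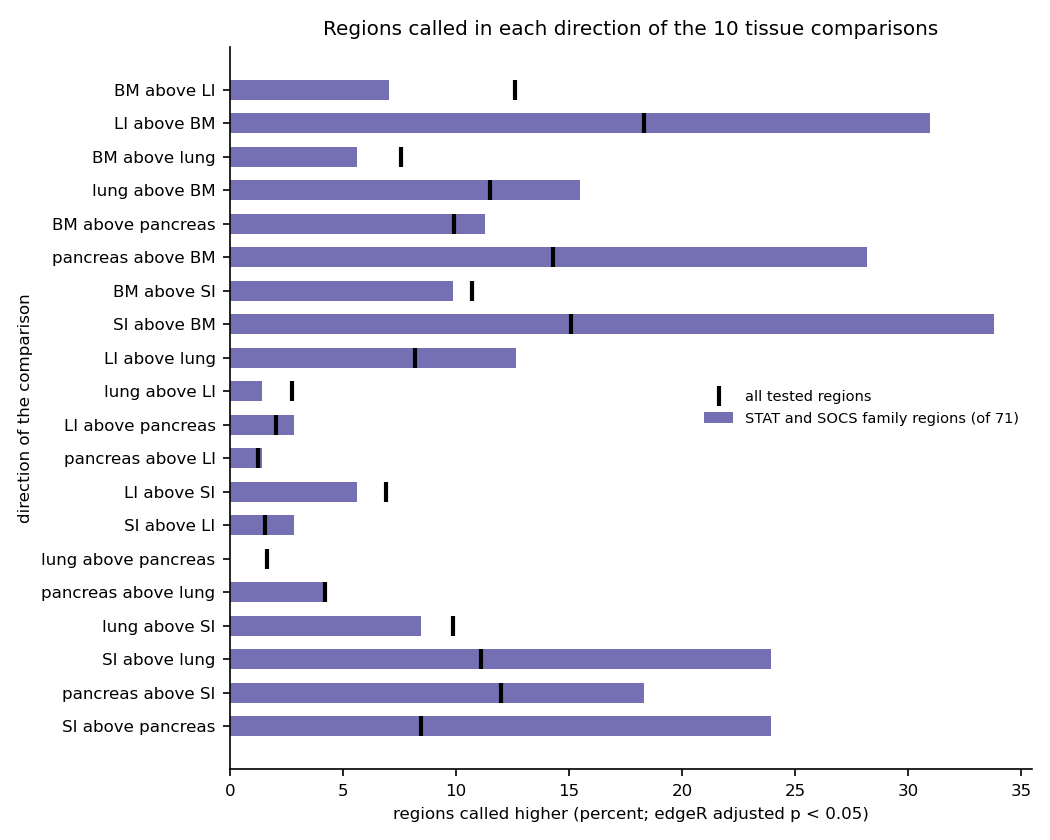
Bars give the percentage of the 71 STAT and SOCS family regions called higher in 1 tissue than in another for the 20 directions of the 10 comparisons, and ticks the percentage over all tested regions. The bars of LI, pancreas and SI above BM reach past their ticks, with 22, 20 and 24 regions.

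Regions that stood below each of the other 4 tissues (unadjusted p under 0.05 in each contrast) numbered 17, against 12.7% of the whole table, of which 10 were lowest in BM, 5 in SI, 1 in lung and 1 in pancreas. Those that stood above each of the others numbered 9 of 71, near the 11.3% of the whole table, of which 5 were in SI. The shares of the whole table were not computed by tissue, so the counts for BM and SI have no background. By the mean alone, BM was the lowest tissue at 26.2% of all tested regions and SI the highest at 23.8%. The 10 in BM were 2 of Cish, 2 of Socs2, 1 of Stat3 and 5 of Stat4. The 5 that stood higher in SI were Stat3 +34.5 kb, Stat3 +41.9 kb, Stat5b +45.9 kb, Socs1 +44.2 kb and Socs3 +3.6 kb. An adjusted p under 0.05 in each contrast was met by 11 of the 17 and by 3 of the 9. Below, a fold between the highest and the lowest tissue of a region is given for a pair picked for its size, so that its p is smaller than that of a pair set in advance.

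Cish encodes CIS, a STAT5 target that dampens STAT5 signalling and IL-2 receptor signalling. Pancreas was the highest at 5 of its 6 regions and lung at the other, and BM or SI was the lowest, at 3 each. At the promoter (Cish -0.4 kb, chr9:107295918-107296514), CPM was 95.1 and 75.2 in pancreas, 73.9 and 82.6 in lung, 65.2 and 66.4 in LI, 59.8 and 55.7 in BM and 56.7 and 58.0 in SI. The promoter varied least of the called Cish regions, with pancreas 1.49 times SI, and its adjusted p was 0.0388, which became 0.0769 once the trend with GC content was removed. Leaving out BM replicate 1 or 2, LI replicate 1 or 2, lung replicate 1 or 2 or pancreas replicate 1 also ended that call, as did a block for replicate number (adjusted p = 0.057).

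In the first intron (Cish +1.7 kb, chr9:107298051-107298617), the site shown above with STAT letters, CPM was 39.1 and 31.1 in pancreas, 22.9 and 29.8 in lung, 19.8 and 25.2 in LI, 25.1 and 18.7 in SI and 13 and 12.7 in BM. Both BM libraries lay below the other 8. BM was below pancreas by 1.45 ± 0.23 on the log2 scale (SE; edgeR adjusted p = 0.000389), and below each of the other tissues at adjusted p up to 0.0217. With the GC trend removed, the edgeR adjusted p was 0.0503 against LI and 0.0537 against SI. It was 0.00478 against lung and 0.00109 against pancreas in that fit. Downstream of the gene (Cish +6.6 kb, chr9:107302990-107303490), CPM was 21.6 and 17.7 in pancreas, 16.9 and 16.0 in LI ILC2s, 11.3 and 18.3 in lung, 10.5 and 11.8 in SI and 4.80 and 3.77 in BM. Here BM again lay below the other 8 libraries, by 2.2 ± 0.28 log2 units from pancreas (adjusted p = 4.77e-05), which is 4.59-fold. A region further on had another order. At Cish +11.0 kb (chr9:107307359-107307865), CPM was 20.6 and 14.3 in pancreas, 11.6 and 18.1 in lung, 10.9 and 8.38 in BM, 8.80 and 6.47 in LI and 4.53 and 2.86 in SI. SI was the lowest there, and pancreas exceeded it 4.80-fold (log2 difference 2.26 ± 0.32, adjusted p = 0.000145).

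Socs2 encodes an inhibitor of growth hormone and STAT5 signalling. Each of its 3 regions was lowest in BM. In the promoter (Socs2 -0.2 kb, chr10:95416757-95417289), CPM was 76.6 and 52.8 in pancreas, 62.7 and 54.4 in SI, 59.3 and 57.1 in LI ILC2s, 57.3 and 55.0 in lung and 28.0 and 42.8 in BM. BM lay below the other libraries and the other 4 tissues overlapped. BM differed from pancreas by -0.87 ± 0.22 on the log2 scale (adjusted p = 0.0103), and the test over the 5 tissues (adjusted p = 0.0346) was no longer past 0.05 when 1 of 6 libraries was left out (BM replicate 1, LI replicate 1 or 2, lung replicate 1 or 2, or pancreas replicate 1). At the second start site (Socs2 +1.2 kb, chr10:95415232-95416092), CPM was 42.4 and 32.7 in pancreas, 37.5 and 24.7 in SI, 25.9 and 29.5 in LI ILC2s, 22.8 and 31.5 in lung and 13.7 and 14.7 in BM. BM was again below all 8 other libraries, and 2.65-fold below pancreas (adjusted p = 0.000719). Downstream (Socs2 +21.5 kb, chr10:95395065-95395565), CPM was low, from 1.71 in a BM library to 5.30 in an SI library, and the adjusted p of 0.0453 was 0.0502 with the GC trend removed. That call was also lost without any 1 of the 8 libraries outside pancreas.

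Socs1 encodes the inhibitor of Janus kinases that limits interferon and common gamma chain cytokine signalling. Its 20 regions reach to 120.0 kb downstream of the TSS, and 12 of them lie inside Clec16a, its neighbour, where the nearest start site was that of Socs1; 6 of those 12 were called. The promoter did not differ among tissues in the test, while 9 regions further off did. In the promoter region (Socs1 -0.9 kb, chr16:10786223-10786750), CPM ran from 23.1 in a BM library to 37.6 in an SI library (adjusted p = 0.295). The region over the start site, Socs1 +0.1 kb, which was picked out after its values were seen, ran from 73.2 in a pancreas library to 119 in a BM library (adjusted p = 0.337).

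Of the Socs1 regions, the widest range lay at Socs1 +30.8 kb (chr16:10754424-10754954), in the space between genes. CPM was 73.8 and 68.2 in pancreas, 49.2 and 37.3 in LI ILC2s, 33.5 and 44.3 in lung, 19.3 and 23.3 in BM and 6.74 and 5.92 in SI. Pancreas lay above every other library and SI below every other, and BM between SI and the other 3 tissues. Pancreas was 11.2-fold above SI (log2 difference 3.49 ± 0.23, adjusted p = 1.65e-07), and 1.73 ± 0.21 log2 units above BM (adjusted p = 4.07e-05). LI and lung did not differ by the test (0.15 ± 0.21 log2 units, adjusted p = 0.71), while for LI and pancreas the tools differed (-0.72 ± 0.21, adjusted p = 0.0738 by edgeR and 0.03 by DESeq2).

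At Socs1 +13.2 kb (chr16:10772034-10772686), which holds the paired STAT letters, CPM was 56.5 and 66.6 in BM, 48.4 and 51.9 in lung, 37.0 and 32.7 in pancreas, 24.8 and 41.4 in LI and 18.8 and 27.0 in SI. BM was the highest and SI the lowest, and the LI libraries overlapped those of SI and pancreas. BM exceeded SI 2.69-fold (1.43 ± 0.24 log2 units, adjusted p = 0.000454). In Clec16a, at Socs1 +108.7 kb (chr16:10676586-10677117), CPM was 16.4 and 17.4 in LI, 12.8 and 14.9 in pancreas, 10.8 and 12.1 in SI, 5.33 and 9.43 in BM and 4.78 and 4.64 in lung. Lung was below LI by 1.84 ± 0.28 log2 units (adjusted p = 0.000576), and both lung libraries lay below the other 8. The other called regions of Socs1 had smaller ranges, from 1.99-fold at +26.5 kb (pancreas over SI) to 2.66-fold at +54.4 kb (LI over BM).

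**Figure D3:**
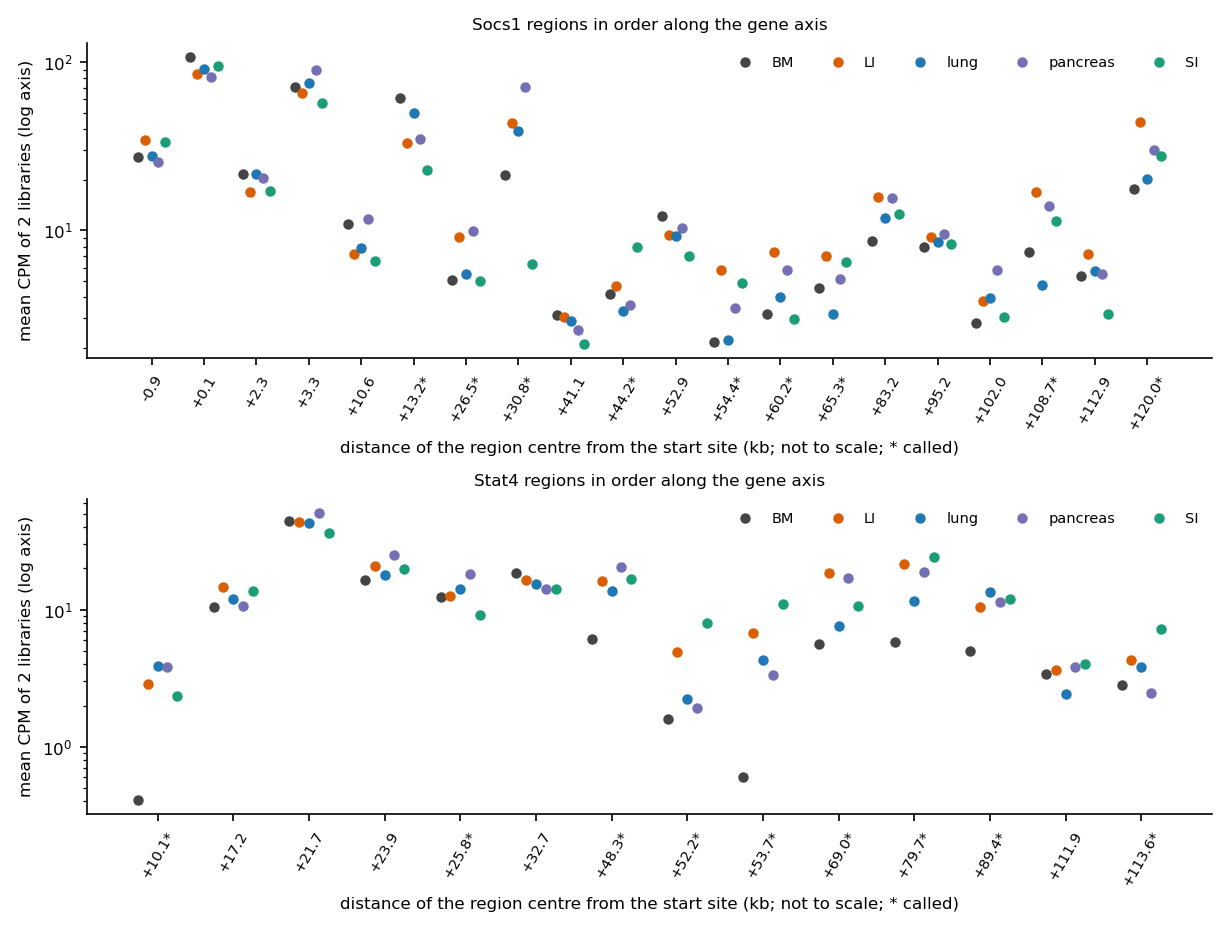
Mean CPM of 2 libraries (log axis) in each tissue at each region of Socs1 (top) and Stat4 (bottom), ordered by distance from the start site, an asterisk for a called region. At Socs1 +30.8 kb pancreas is at the top and SI at the bottom, and at Stat4 +53.7 kb BM lies far below the other tissues.

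Socs3 encodes the inhibitor of gp130 cytokine receptors and of STAT3. Its promoter (Socs3 -0.6 kb, chr11:117969739-117970280) ran from 15.8 CPM in a lung library to 21.0 in a BM library and did not differ in the test (adjusted p = 0.821). Downstream, at Socs3 +3.6 kb (chr11:117965542-117966072), CPM was 23.6 and 19.2 in SI, 13.4 and 12.3 in BM, 10.4 and 13.2 in LI ILC2s, 8.35 and 9.61 in lung and 4.95 and 5.18 in pancreas. SI lay above and pancreas below the other libraries, with SI 4.23-fold over pancreas (2.08 ± 0.25 log2 units, adjusted p = 3.46e-05). This order of SI and pancreas is the reverse of that at Socs1 +30.8 kb. Further downstream, at Socs3 +29.6 kb (chr11:117939565-117940065), CPM was 4.70 and 3.68 in BM, 2.18 and 2.37 in pancreas, 2.51 and 1.44 in lung, 2.70 and 1.22 in LI and 0.337 and 0.209 in SI, where SI had 7 and 6 reads. SI was below every other library, and BM exceeded it by 3.94 ± 0.58 log2 units (adjusted p = 0.000161). At Socs3 +15.0 kb (chr11:117954102-117954602), CPM was 6.18 and 5.28 in pancreas, 3.77 and 5.71 in BM, 3.65 and 3.92 in lung, 2.79 and 2.52 in LI and 2.12 and 0.906 in SI. SI was lowest again, 3.87-fold under pancreas (adjusted p = 0.00339).

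**Figure D4:**
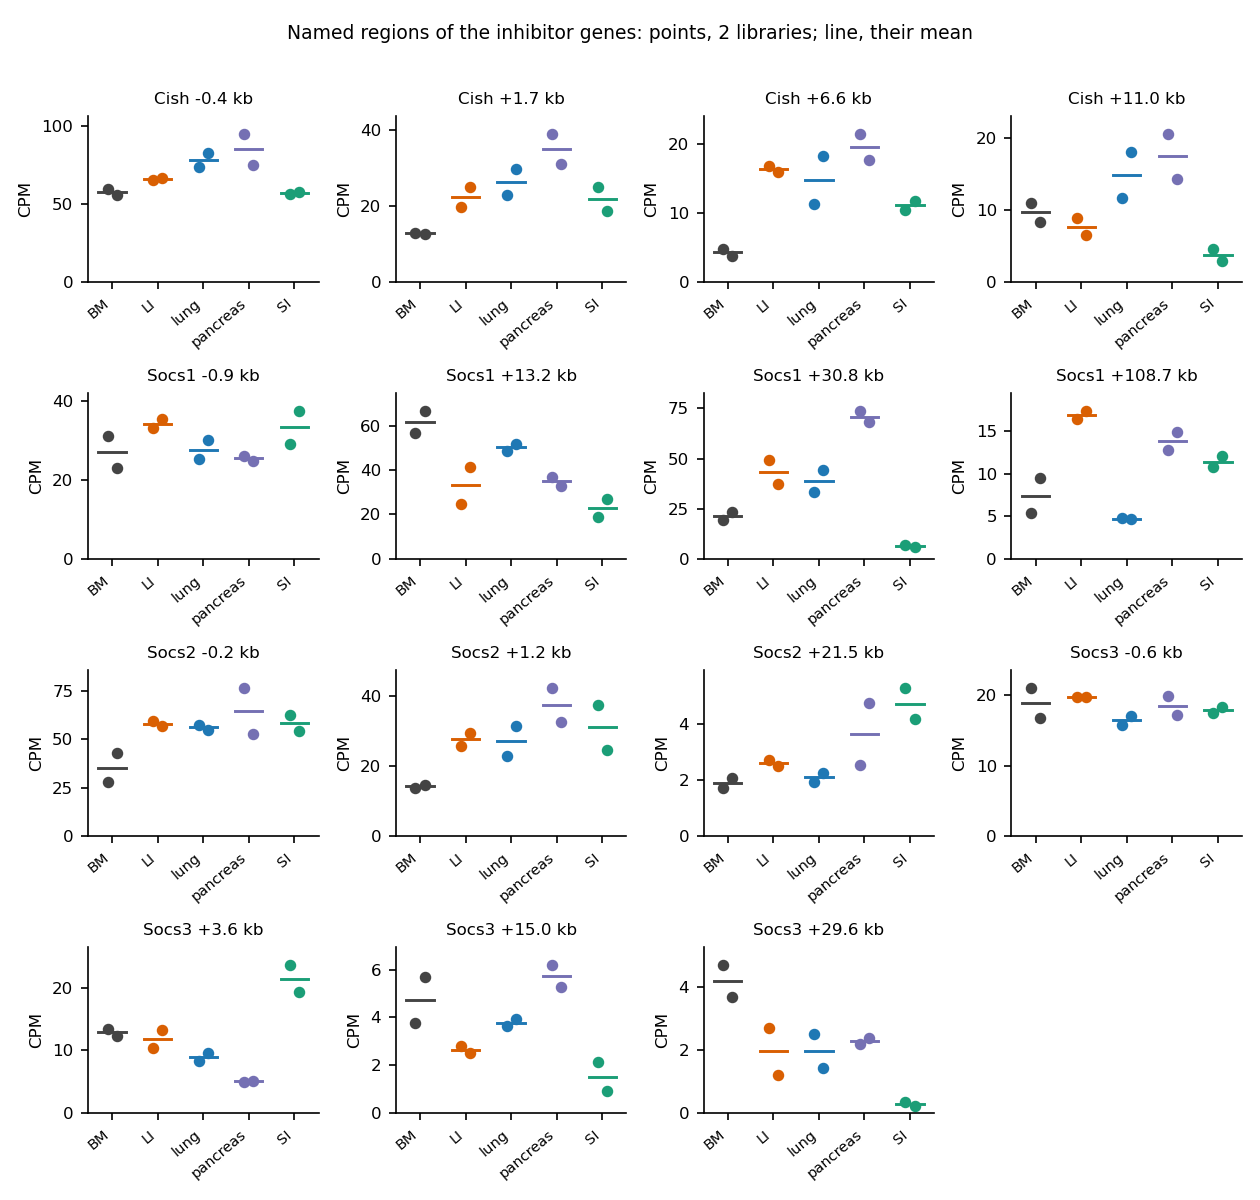
Points give CPM of the 2 libraries of each tissue and lines their mean at the 15 named regions of the inhibitor genes, each panel with its own axis from 0. BM lies lowest at Cish +1.7 kb and Socs2 +1.2 kb, and SI lowest at Socs1 +30.8 kb and Socs3 +29.6 kb.

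Stat3 encodes STAT3, which relays IL-6 and IL-10 family signals. Its promoter region (Stat3 -0.2 kb, chr11:100939463-100939980) was the most open of the 71 per kb of region (230 CPM per kb over the 10 libraries). CPM there was 183 and 142 in BM, 124 and 113 in lung, 91.9 and 137 in SI, 104 and 97.6 in pancreas and 98.9 and 99.7 in LI. Both BM libraries lay above the others, but the adjusted p of 0.0406 became 0.218 with the GC trend removed and 0.0566 with the block, and the call was lost without any 1 of the 8 libraries outside SI. BM was instead the lowest tissue at a region in the first intron. At Stat3 +5.4 kb (chr11:100933741-100934457), CPM was 13 and 28.2 in SI, 14.4 and 21.3 in LI, 9.07 and 14.8 in pancreas, 8.11 and 10.8 in lung and 2.35 and 2.02 in BM. Both BM libraries lay below the rest, and SI was 9.45-fold above BM (3.24 ± 0.38 log2 units, adjusted p = 2.74e-05). BM was also under LI by 3.03 ± 0.38 log2 units (adjusted p = 3.79e-05).

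SI was the highest tissue at 5 of the 7 Stat3 regions, of which +5.4, +18.0, +34.5 and +41.9 kb were called. At Stat3 +34.5 kb (chr11:100904740-100905240, over exon 8), CPM was 10.5 and 6.69 in SI, 2.27 and 2.30 in LI, 0.530 and 3.34 in pancreas, 1.76 and 1.71 in lung and 2.01 and 0.690 in BM. Both SI libraries exceeded the other 8, by 2.67 ± 0.60 log2 units over BM (adjusted p = 0.00349). At Stat3 +41.9 kb (chr11:100897382-100897882), which is also the Stat5a +38.3 kb region, CPM was 21.6 and 3.0 in SI, 5.58 and 3.26 in LI, 1.27 and 0.782 in BM, 0.766 and 1.19 in pancreas and 0.823 and 0.580 in lung. The SI libraries differed, and SI replicate 2 lay below both LI libraries. SI was 17.5-fold over lung (4.13 ± 0.69 log2 units, adjusted p = 0.000496), which was 4.18-fold without SI replicate 1 (adjusted p = 0.0227) and 30.7-fold without SI replicate 2.

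Stat4 encodes STAT4, which relays IL-12 in type 1 lymphocytes. Its 14 regions lie within the gene and no promoter region of it was in the table. BM was the lowest tissue at 8 of the 14. At Stat4 +53.7 kb (chr1:52040553-52041069, intron 4), CPM was 10.8 and 11.3 in SI, 6.63 and 6.95 in LI, 1.65 and 5.07 in pancreas, 4.70 and 3.89 in lung and 0.783 and 0.414 in BM. SI lay above and BM below the other libraries. The BM values rest on 16 and 9 reads. SI exceeded BM by 4.20 ± 0.47 log2 units (18.4-fold, adjusted p = 1.77e-05). At Stat4 +10.1 kb (chr1:51996982-51997482), CPM was 3.25 and 4.55 in lung, 3.06 and 4.64 in pancreas, 2.53 and 3.21 in LI, 2.07 and 2.65 in SI and 0.636 and 0.184 in BM. BM, with 13 and 4 reads, lay below the other 8 libraries there, by 3.25 ± 0.53 log2 units from lung (adjusted p = 0.000416). At Stat4 +52.2 kb (chr1:52039131-52039631), CPM was 10.9 and 5.16 in SI, 4.79 and 5.00 in LI, 1.65 and 2.16 in pancreas, 1.53 and 2.95 in lung and 1.76 and 1.43 in BM. SI and LI lay above BM, lung and pancreas, with SI 5.00-fold over BM (adjusted p = 0.00095). Stat4 +21.7 kb, picked out after its values were seen, was the most open region of the gene (83.7 CPM per kb) and was not called (adjusted p = 0.391).

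Stat5a and Stat5b lie side by side on chromosome 11 and encode the 2 forms of STAT5. At Stat5a +6.5 kb (chr11:100865560-100866079, intron 6), CPM was 8.47 and 7.87 in BM, 4.33 and 7.11 in SI, 4.1 and 2.65 in LI ILC2s, 3.10 and 3.59 in lung and 2.00 and 3.02 in pancreas. BM was the highest tissue, 3.32-fold over pancreas (adjusted p = 0.00331). In the same intron, Stat5a +7.3 kb (chr11:100866375-100866875) gave 6.36 and 4.74 CPM in BM and from 0.431 to 2.62 elsewhere, and BM exceeded lung by 2.57 ± 0.54 log2 units (adjusted p = 0.00271). Leaving out BM replicate 1 ended the call of that region. At the start site region (Stat5a +1.1 kb, chr11:100860169-100860761), CPM ran from 40.0 in a pancreas library to 62.4 in a BM library. SI was 1.45-fold over pancreas in that region, and the adjusted p over tissues was 0.0457, which became 0.37 with the GC trend removed and 0.0669 with a block for replicate number, and the call was lost without any 1 of the 10 libraries.

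At Stat5b, SI was the highest in 6 of 7 regions and pancreas the lowest in 5. At Stat5b +45.9 kb (chr11:100804381-100804967, intron 3), CPM was 12.4 and 16.7 in SI, 6.45 and 7.43 in LI ILC2s, 4.67 and 5.66 in lung, 3.52 and 4.97 in BM and 2.41 and 4.1 in pancreas. Both SI libraries lay above the others, by 2.2 ± 0.33 log2 units over pancreas (adjusted p = 0.000216). At Stat5b +32.0 kb (chr11:100818284-100818899, intron 1), CPM was 11.4 and 25.6 in SI, 18.3 and 15.1 in BM, 17.0 and 15.7 in LI ILC2s, 6.51 and 8.36 in lung and 5.42 and 5.07 in pancreas. Lung and pancreas lay below the other 6 libraries, and SI was 3.53-fold over pancreas although its own libraries differed most (adjusted p = 0.00103). At Stat5b -0.8 kb (chr11:100851111-100851611), CPM was 6.79 and 6.10 in SI, 5.75 and 4.61 in LI, 3.91 and 4.05 in BM, 2.83 and 2.70 in pancreas and 2.27 and 2.29 in lung. Both SI libraries were the highest and both lung libraries the lowest, with SI 2.81-fold over lung (adjusted p = 0.00246). The start site region, Stat5b +0.1 kb, ran from 7.98 in a pancreas library to 17.9 in an SI library (adjusted p = 0.331).

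Stat6 encodes STAT6, which carries the IL-4 and IL-13 signal. Its promoter (Stat6 -0.8 kb, chr10:127641872-127642415) had CPM of 43.0 and 35.4 in lung, 39.8 and 35.4 in pancreas, 36.5 and 33.8 in LI, 33 and 29.5 in BM and 24.8 and 30.0 in SI. Lung was the highest and SI the lowest, and each overlapped another tissue. Lung was 1.43-fold over SI (0.51 ± 0.19 log2 units, adjusted p = 0.0718). The region over the start site, Stat6 +0.3 kb, chosen after its values were seen, ran from 60.1 to 85.8 CPM (adjusted p = 0.409).

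**Figure D5:**
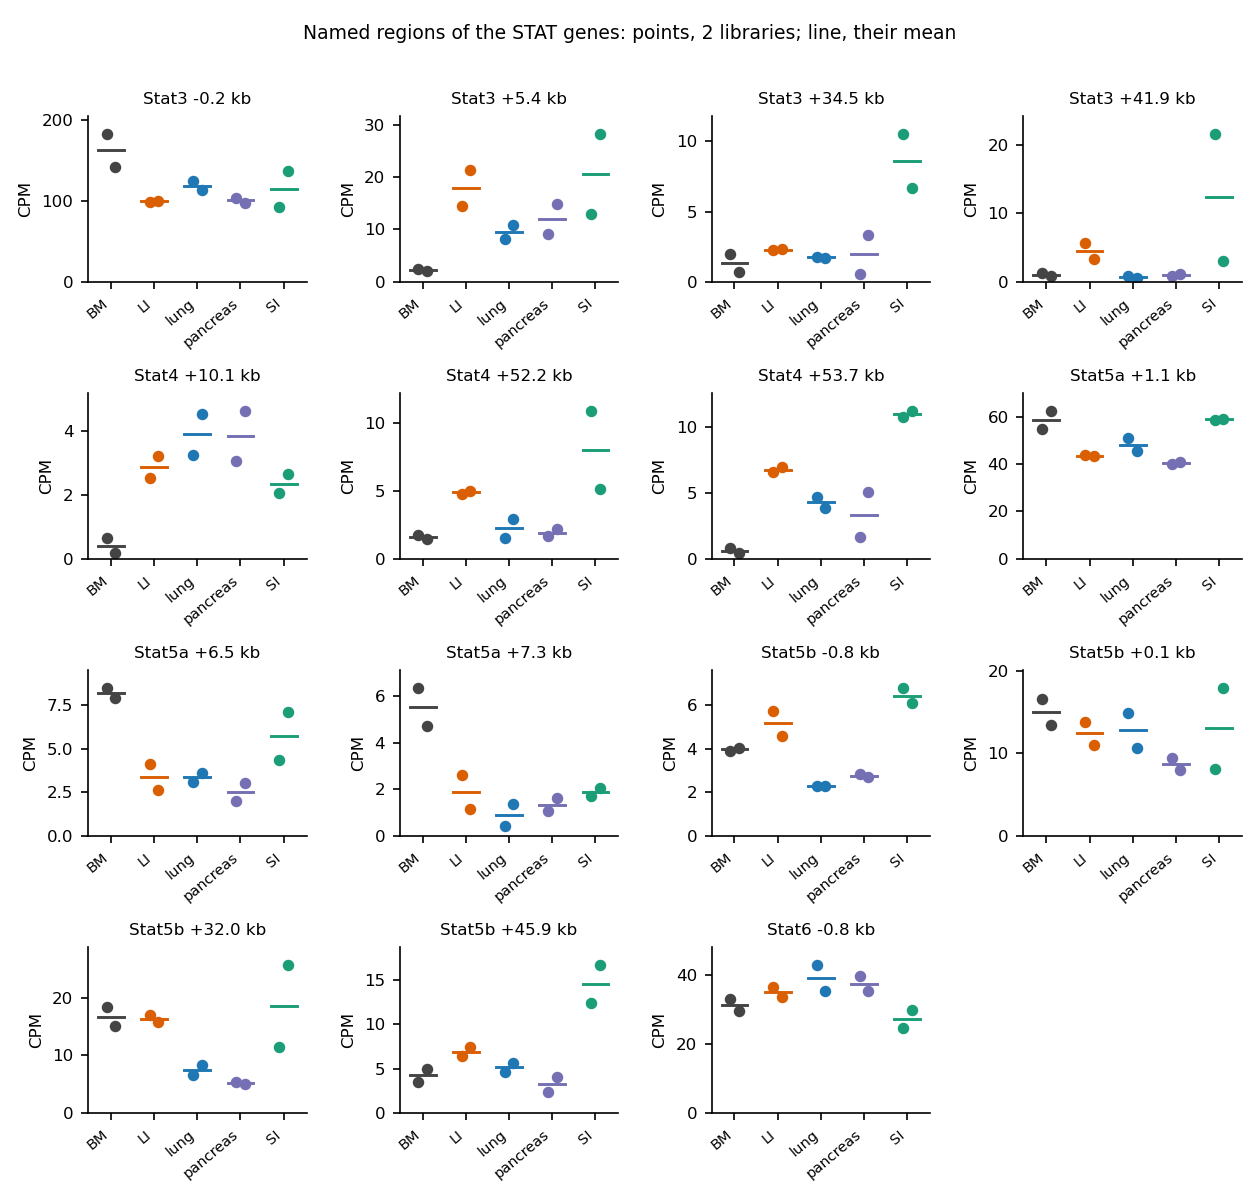
Points give CPM of the 2 libraries of each tissue and lines their mean at the 15 named regions of the STAT genes, each panel with its own axis from 0. BM lies lowest at Stat3 +5.4 kb, Stat4 +10.1 kb and Stat4 +53.7 kb, and SI highest at Stat5b +45.9 kb.

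Other genes of the pathway were called at about the rate of the whole table. The Janus kinase genes had 19 of 41 regions called, the STAT and SOCS genes outside the 9 had 9 of 22, other inhibitors (the Pias genes, phosphatases and Sh2b3) 18 of 41 and known STAT target genes 39 of 86. These were 46.3%, 40.9%, 43.9% and 45.3%. Of the genes with over 10 regions, the kinase genes Jak1 and Jak2 had 12 of 24 and 6 of 12 regions called, the phosphatase gene Ptpn1 had 4 of 16, and the anti-apoptotic genes Bcl2 and Bcl2l1 had 11 of 22 and 8 of 12. Ccnd3, which encodes a D-type cyclin, had 6 of 11.

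Letters of a STAT dimer site (TTCNNNGAA) lay in the central 500 bp of 15 of the 71 regions (21.1%), against 13.3% of all 50039. The AP-1 letters TGANTCA lay in 21 (29.6%, against 23.2%), and AGATAA, the GATA letters, in 17 (23.9%, against 24.8%). The TTC and GAA letters 4 bases apart lay in 13 (18.3%, against 11.2%), TGTGGT (RUNX) in 28 (39.4%, against 39.1%), GCGTG (AHR) in 29 (40.8%, against 40.2%), and an IRF-type GAAA repeat in 9 (12.7%, against 7.22%). Of the 15 STAT regions, 14 belong to the inhibitor genes and 1, Stat5a +7.3 kb, to a STAT gene.

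When CPM was summed over the regions of a gene, the profile over the 10 libraries most like it (Pearson's r of log2 sums, 7015 genes) was that of Ilrun for Stat3 (0.977, then Ube2v1 at 0.96), Gm32200 for Stat4 (0.94, then Plcl2 at 0.935), Dnaaf3 for Stat5a (0.972, then Vangl2 at 0.967), C2cd3 for Stat5b (0.982, then Mir7078 at 0.969), Stard3nl for Socs1 (0.976, then Slc4a7 at 0.961), Arhgap23 for Socs3 (0.906, then Orai3 at 0.898) and Ptafr for Cish (0.978, then Gm51288 at 0.962). The points are the 10 libraries, which share tissue and depth. Summed CPM of Cish was 317 and 267 in the pancreas libraries and 248 and 281 in those of lung, and it ran from 168 to 224 in the other 6, so that pancreas and lung lay above the rest without overlap.

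Total counts ran from 10282987 to 32797872 per library, of which the 71 regions held 0.118% to 0.158%. Of the ILC2 markers, 10 of 10 had a promoter region, with a summed level of 255 to 416 CPM. This level was 416 and 372 in pancreas, 323 and 368 in lung, 325 and 316 in BM, 290 and 355 in LI and 255 and 341 in SI. Both pancreas libraries lay above the others, and the lowest library was from SI. Of the T cell markers Cd3e and Cd3g alone had one, at 4.71 to 10.0 CPM, with BM at 4.89 and 4.74, LI at 4.71 and 7.69, lung at 10.0 and 7.01, pancreas at 8.60 and 9.38 and SI at 9.20 and 7.63. Of the epithelial markers Cdh1 alone had one, lowest in BM (2.89 and 3.54 CPM), between 4.43 and 6.26 in LI, lung and SI, and 6.01 and 9.49 in pancreas. The T cell and epithelial lists, with 2 and 1 promoter regions, had their lowest tissue mean in BM. So did 23 of the 71 regions (32.4%, against 26.2% of all tested regions), and a link between these was not tested. No promoter of the B cell, myeloid, mast cell and basophil, NK and ILC1, ILC3 or exocrine pancreas lists was in the table. The part of other cells, of the gates and of the isolation of cells in the differences between tissues was not tested.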

How the data were processed

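ATAC-seq libraries of ILC2s from 5 tissues, 2 per tissue, were grouped by their titles. The authors mapped reads to mm10 with Bowtie2 2.2.9, called peaks with MACS2 2.1.1 at q 0.01, kept the peaks of both replicates, merged them and deposited raw counts of reads per region; they are whole numbers with no normalization. Removal of duplicate reads, mitochondrial or blacklist filters and a Tn5 shift are not given in the sources used here. The table holds no gene names, so regions were annotated with curated RefSeq transcripts of GRCm38, and START was used as given.

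The main test, run on every region that had a read, was the quasi-likelihood test of edgeR 4.0.16 (TMM, glmQLFit, glmQLFTest; R 4.3.3), tissue as the factor, with Benjamini-Hochberg adjustment over all 49981 regions, called at 0.05. Depth limits precision: intervals and p-values cover counting error and the spread between libraries, and reads of PCR products are not independent molecules. Alternatives were DESeq2 1.42.0 and its size factors, library size alone, filterByExpr, thinned counts, the GC trend removed (loess, span 0.3), 4-library fits, a block for replicate number, and single libraries omitted.

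The members and gene lists were chosen with earlier results of these data known. Named regions are, per gene, the promoter region with most counts and up to 3 other called regions with the largest range of mean log2 CPM. Motifs were searched on both strands in the central 500 bp; matches of different motifs may overlap. Sequences come from the RefSeq GRCm38 genome. The genes whose profile was most like that of Stat6 and of Socs2 are not reported here.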

Additional observations from a re-analysis of the deposited data

How the results depend on the processing

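Of the 71 regions, 43 were called as different among tissues, and this lay from 34 to 46 when each library was left out in turn. Over all settings, 209 of the summary counts stayed within 1.5 times of the reported count and 40 moved further, 31 of them with a library left out. Of the values of the named regions, 503 kept their side of the threshold, 53 lost it and 2 gained it. DESeq2 gave 6 called regions for LI against pancreas (3 by edgeR), 10 for LI against SI (6) and 5 for lung against pancreas (3). Fits on the 4 libraries of a comparison gave 2 for LI against SI, 8 for lung against pancreas and 17 for pancreas against SI (30). The GC trend removed with the replicate block gave 5 for LI against pancreas. With an adjusted p in each contrast, 3 regions in place of 9 stood higher in 1 tissue and 11 in place of 17 lower. Leaving out a library gave 11 to 28 for BM against LI, 8 to 18 for BM against lung, 16 to 31 for BM against pancreas, 19 to 30 for BM against SI, 1 to 14 for LI against lung, 0 to 7 for LI against pancreas, 1 to 8 for LI against SI, 0 to 5 for lung against pancreas, 12 to 23 for lung against SI, 8 to 28 for pancreas against SI, 4 to 12 for regions higher in 1 tissue and 14 to 20 for those lower. Single libraries moved these counts by over 1.5 times: BM against LI fell from 27 to 11 without BM replicate 1 and 15 without LI replicate 2, BM against lung from 15 to 9 without BM replicate 1 and 8 without lung replicate 2, BM against pancreas from 28 to 16 without BM replicate 1 or pancreas replicate 1 and 18 without pancreas replicate 2, and BM against SI from 31 to 19 and 20 without BM replicate 1 and 2. LI against lung fell from 10 to 3 and 6 without LI replicate 1 and 2 and to 4 and 1 without lung replicate 1 and 2. LI against pancreas, at 3, gave 1 and 0 without LI replicate 1 and 2, 0 and 1 without pancreas replicate 1 and 2, and 7 without either SI library. LI against SI, at 6, gave 1 and 2 without LI replicate 1 and 2. Lung against pancreas, at 3, gave 1 and 0 without lung replicate 1 and 2, 0 without pancreas replicate 2, and 5 without either SI library. Lung against SI fell from 23 to 12 and 13 without lung replicate 1 and 2, pancreas against SI from 30 to 8 without pancreas replicate 1 and 19 without SI replicate 1, and regions higher in 1 tissue from 9 to 4 without LI replicate 2. A lone library is assumed to vary like the other tissues. The fit with the replicate block called 40 regions among tissues and 27, 15, 28 and 30 for BM against LI, lung, pancreas and SI. Whether same-numbered libraries share a batch is not given in the sources used here. Their deviations correlated at over 0.1 in 4 of 10 tissue pairs, from -0.218 to 0.196. The values were 0.155 for LI and lung, 0.196 for LI and SI and 0.175 for lung and SI. Pancreas had -0.178 with LI, -0.218 with lung and -0.131 with SI. A shared batch was not tested. A removed GC trend ended 8 of the 43 calls and library size alone 2. Calls at Cish -0.4 kb, Stat3 -0.2 kb and Stat5a +1.1 kb were lost with the block. The cause of these changes was not tested.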
